A study of Drosophila melanogaster with 46 samples.

Results

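This account follows the transcripts of 10 *Drosophila* genes of the trithorax group and of histone H3 lysine 4 (H3K4) methylation in the larval central nervous system (CNS). They are *trx*, *trr*, *Set1*, *ash1*, *ash2*, *wds*, *Lpt*, *Utx*, *nej* and *lid*, and they were taken by name, as writers, erasers and partners for H3K4 methylation and H3K27 acetylation, from the 17490 genes of the expression table. All 10 were found in the table and all 10 passed the filter on low values that left 9357 genes to test. Each library was made from pooled CNS of larvae in the third instar. The *Tet* CD larvae (4 libraries) carry the catalytic dead allele of *Tet*, in which the residues of the iron binding motif are changed from HrD to YrA, and the strain list gives this allele as a GFP knock-in, *Tet* CD-GFP. The control larvae (WT, 4 libraries) are given as wild type, with no mutation or tag in *Tet* named. Their strain is not stated for these libraries in the sources used here. The strain list holds w1118, which the study used as the negative control of its TET-GFP ChIP-seq. The mutation is present in every cell of the animal and not in 1 cell type, and both groups were dissected at the same stage. The question asked of these libraries was which transcripts depend on the enzymatic activity of TET. The *Tet* null larvae and the histone mark profiles of the same study were not analysed here.

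The trithorax group was defined in flies by genes that keep the homeotic genes active, in opposition to the Polycomb group. Several of its members act in COMPASS complexes, which methylate H3K4 around a catalytic subunit, Trx, Trr or Set1, and share a core of common subunits. Set1 is responsible for most di- and trimethylation of H3K4, Trx maintains homeotic gene expression, and Trr acts with Utx and Lpt at enhancers, where the acetyltransferase Nej (the fly CBP) adds the H3K27 acetyl mark. Lid removes methyl groups from H3K4.

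The sequence upstream of these genes is shown first because one element recurs in it. Promoters were taken from 250 bases before to 50 bases after the annotated gene start in dm6, and searched on both strands for the letters GGTCACAC, the core of the element known as motif 1 of *Drosophila* promoters. The core was present in 4 of the 10 promoters (40%), those of *trx*, *ash1* and *lid* among them, against 6.32% of the 17179 promoters of the table's genes and 11% of those of the 9161 tested genes with an annotation. These 3 promoters are printed 5′ to 3′ on the strand of the gene, with the core in capitals on whichever strand it was read. They lie at chr3R:14286854-14287153 (minus strand, *trx*), chr3L:19598706-19599005 (minus strand, *ash1*) and chr2L:5999452-5999751 (minus strand, *lid*), with the sequence from the RefSeq copy of the assembly and the starts from Ensembl.
trx: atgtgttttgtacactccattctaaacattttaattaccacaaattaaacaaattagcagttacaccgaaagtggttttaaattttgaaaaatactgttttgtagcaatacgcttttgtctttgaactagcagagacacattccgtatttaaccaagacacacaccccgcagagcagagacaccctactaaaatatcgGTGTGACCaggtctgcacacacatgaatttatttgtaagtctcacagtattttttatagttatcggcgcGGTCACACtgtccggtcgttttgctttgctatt
ash1: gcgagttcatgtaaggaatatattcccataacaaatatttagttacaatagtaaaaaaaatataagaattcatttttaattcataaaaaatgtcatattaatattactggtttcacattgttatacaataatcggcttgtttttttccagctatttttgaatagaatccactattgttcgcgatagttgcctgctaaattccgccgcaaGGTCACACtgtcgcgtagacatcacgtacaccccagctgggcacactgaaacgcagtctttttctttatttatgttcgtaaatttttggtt
lid: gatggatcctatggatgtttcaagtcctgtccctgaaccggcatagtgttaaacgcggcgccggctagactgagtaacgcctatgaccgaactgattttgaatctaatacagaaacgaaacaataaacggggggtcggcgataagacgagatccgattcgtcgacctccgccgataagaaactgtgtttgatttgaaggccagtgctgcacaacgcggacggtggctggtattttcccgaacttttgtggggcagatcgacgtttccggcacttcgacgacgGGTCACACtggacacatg

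In *trx* the core was matched in 2 places. Read along the gene, these began 52 bases before and 17 bases after the start. In *ash1* it began 41 bases before the start. In *lid* it began 32 bases after it. Of the other elements searched, also on both strands, GAGAG was matched in 2 of 10 (20%, against 29.5% of all promoters), TATAAA in 5 of 10 (50%, against 44.5%) and the DRE, TATCGATA, in 1 of 10 (10%, against 7.63%). A match of letters is a description and not a bound site, and no binding data were analysed here.

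The libraries held 17900000 to 19300000 reads in *Tet* CD and 17500000 to 32600000 in WT, as read from the steps between low values, and each level of the 10 genes rests on 900 to 18100 reads. Transcripts of neurons, neuroblasts and glia were present in all 8 libraries. The summed level of the neuronal markers *elav*, *nSyb*, *Syt1* and *brp* was 180 to 292 RPKM in *Tet* CD and 296 to 337 RPKM in WT, with the lowest sums in *Tet* CD replicates 2 (180) and 3 (221). *elav*, *Syt1* and *brp* have 10715, 7190 and 13371 bases of exon, and *nSyb* has 4072. Long transcripts were low in *Tet* CD replicates 2 and 3, as described below. Without those libraries the log2 fold changes of *elav*, *Syt1*, *brp* and *nSyb* were −0.15, −0.21, −0.13 and −0.10. Over all 8 libraries they were −0.55, −0.60, −0.76 and −0.18. The part of exon length in these sums was not tested. In bulk tissue, fewer cells of a type and less RNA per cell cannot be told apart. The sum of the neuroblast markers was 144 to 159 RPKM in *Tet* CD and 135 to 163 RPKM in WT, and that of the glial markers 236 to 272 and 227 to 245 RPKM. Markers of tracheal cells, which can come with a dissected CNS, summed to 112 to 190 RPKM in *Tet* CD and 45.0 to 99.8 RPKM in WT. The paper reports tracheal and cuticle development among the themes of the genes up-regulated in *Tet* CD. The source of the tracheal difference was not tested, nor was the part of these marker differences in the results.

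Before the values of single genes, *Tet* CD replicates 2 and 3 have to be set apart, because long transcripts were low in them. Exon length is the number of bases in all exons of a gene. In the class of tested genes with the longest exons, the last of 5 of about equal size (4147 bases or more, 1832 genes), the median log2 ratio to the WT mean over *Tet* CD replicates 1 to 4 took the values 0.0050, −0.32, −0.12 and 0.028. For the class with the shortest exons it was 0.14 and 0.069 in replicates 2 and 3, and for the 240 genes of 10000 bases or more it was −0.64 and −0.31. Of the 10 genes, 8 are in the longest class, and *ash2* and *wds* are in the middle one. The fold change of each of the 10 genes is therefore given over all 8 libraries, after taking out a smooth length trend per library, and without replicates 2 and 3. The part of exon length in the results was not tested beyond these fits.

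None of the 10 genes was called between *Tet* CD and WT, at a Benjamini-Hochberg adjusted p below 0.01 from limma with a fold change above 1.2, where 2.51% of all tested genes were (235 of 9357). By unadjusted p below 0.05, 1 of the 10 passed, *nej*, against 28.3% of all tested genes. In none of the 10 were the ranges of the *Tet* CD and WT libraries apart, against 18.8% of all tested genes. The fold change was below 0 on the log2 scale for 7 genes and above 0 for 3, with a median of −0.087, against −0.0061 over all tested genes. With the length trend removed the median of the 10 was −0.0061 and none was called (3.98% of all tested genes were). Without replicates 2 and 3 it was −0.00013 and none was called (1.38% of all tested genes were). Nothing says that libraries of a genotype came from separate cultures or days, so p-values measure the spread between these libraries.

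**Figure D1:**
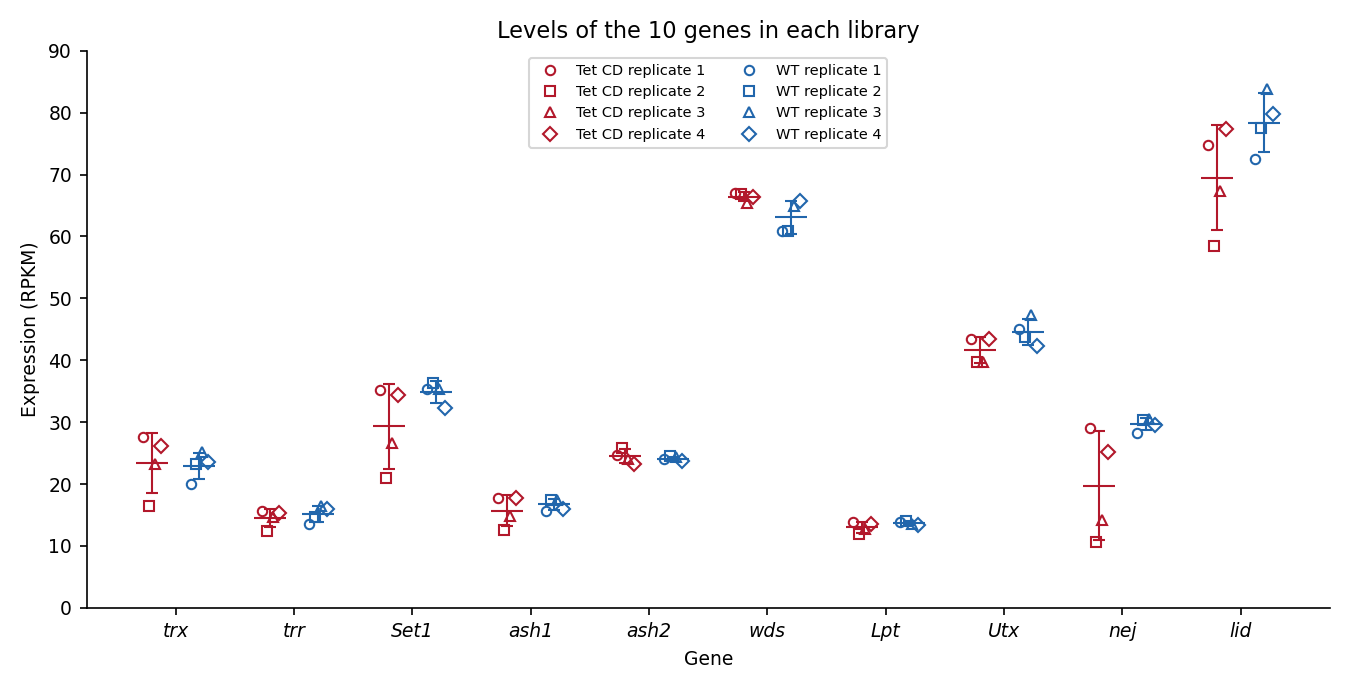
Levels of the 10 genes in RPKM (vertical axis, from 0) in each library, *Tet* CD in red on the left and WT in blue on the right of each gene. Symbols mark replicates, horizontal lines the mean and bars the SD (n = 4 each); for *nej*, replicates 2 and 3 of *Tet* CD lie at 10.6 and 14.2 RPKM and all WT libraries between 28.3 and 30.5 RPKM.

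Among the H3K4 methyltransferases, *trx* (FBgn0003862) had the most even means. It lies on chromosome 3R from 14263358 to 14286903, minus strand, and its exons add up to 14052 bases. *trx* had 27.6, 16.5, 23.3 and 26.1 RPKM in *Tet* CD replicates 1 to 4, against 19.95, 23.2, 25.1 and 23.5 RPKM in WT replicates 1 to 4. RPKM is the read number divided by exon length and library size. The ranges overlapped: *Tet* CD replicate 2 lay below all WT libraries, and replicates 1 and 4 above all of them. The means were 23.4 ± 4.92 RPKM in *Tet* CD and 22.9 ± 2.15 RPKM in WT (SD, n = 4 each), a log2 fold change of 0.0063 (SE 0.15, 95% interval −0.33 to 0.34, adjusted p = 0.984 from limma, exact permutation p = 0.971). Its direction was not stable, since it was below 0 when *Tet* CD replicate 1, 3 or 4 or WT replicate 1 was left out (−0.080 to −0.00081). With the length trend removed *trx* was 0.25 higher on the log2 scale (adjusted p = 0.0192 from limma) and without replicates 2 and 3 it was 0.23 higher (adjusted p = 0.193 from limma), and neither passed the threshold. The antisense RNA gene *asRNA:CR46020*, which lies over 707 bases of *trx* on the other strand, was listed at 0 in all 8 libraries.

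*trr* (FBgn0023518), the catalytic subunit of the enhancer complex, lies on chromosome X from 1881313 to 1889950, minus strand, with 8314 bases of exon. *trr* had 15.6, 12.4, 14.7 and 15.4 RPKM in *Tet* CD, against 13.6, 14.7, 16.5 and 16.0 RPKM in WT. Only *Tet* CD replicate 2 lay below the WT range, and none lay above it. The log2 fold change was −0.062 (SE 0.092, 95% interval −0.27 to 0.14, adjusted p = 0.694 from limma, exact permutation p = 0.543), from means of 14.5 ± 1.46 RPKM in *Tet* CD and 15.2 ± 1.32 RPKM in WT. It was 0.10 with the length trend removed and 0.033 without *Tet* CD replicates 2 and 3. *trr* shares 120 bases with *Coa8* on the other strand, which averaged 20.9 RPKM in *Tet* CD and 20.4 RPKM in WT.

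*Set1* (FBgn0040022) lies on chromosome 3L from 25107594 to 25115180, plus strand, with 5555 bases of exon and the lowest exon GC content of the 10 genes, 37.4%, against 41.9 to 54.5% in the others. *Set1* had 35.2, 20.9, 26.7 and 34.4 RPKM in *Tet* CD replicates 1 to 4, against 35.4, 36.4, 35.4 and 32.3 RPKM in WT replicates 1 to 4. *Tet* CD replicates 2 and 3 were below every WT library, whereas replicates 1 and 4 were inside the WT range. The means were 29.3 ± 6.80 RPKM in *Tet* CD and 34.9 ± 1.79 RPKM in WT (SD, n = 4 each), a log2 fold change of −0.28 (SE 0.15, 95% interval −0.61 to 0.057). It did not pass the test (adjusted p = 0.255 from limma, exact permutation p = 0.171). On the log2 scale its ratio to the WT mean in replicates 2 and 3, −0.73 and −0.38, was below the medians of the 1083 tested genes with exons from 5000 to under 10000 bases, −0.35 and −0.14. Without both libraries the fold change of *Set1* was −0.0020 (adjusted p = 0.990 from limma), and leaving out replicate 2 alone gave −0.13. It was −0.19 with the length trend removed (SE 0.096, adjusted p = 0.206 from limma). *Set1* shares 257 bases with *MED21* on the other strand, which averaged 58.4 RPKM in *Tet* CD and 57.6 RPKM in WT.

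The methyltransferase *ash1* (FBgn0005386), which methylates H3K36 and counteracts Polycomb silencing, lies on chromosome 3L from 19590773 to 19598755, minus strand, with 7615 bases of exon. *ash1* had 17.7, 12.6, 14.8 and 17.7 RPKM in *Tet* CD, against 15.7, 17.5, 17.5 and 16.0 RPKM in WT. The *Tet* CD libraries lay on both sides of the WT ones, replicates 2 and 3 below the WT range and replicates 1 and 4 above it. The log2 fold change was −0.098 (SE 0.11, 95% interval −0.34 to 0.15, adjusted p = 0.587 from limma, exact permutation p = 0.543), from means of 15.7 ± 2.46 RPKM in *Tet* CD and 16.7 ± 0.959 RPKM in WT. It was 0.050 with the length trend removed and 0.083 without *Tet* CD replicates 2 and 3.

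Of the 10 genes, *ash2* and *wds* varied least among *Tet* CD libraries, by 4.65% and 1.08% of the mean (coefficient of variation). Both encode subunits that all COMPASS complexes share, and both have the shortest exons of the 10 genes. The part of exon length in this spread was not tested. *ash2* (FBgn0000139, chromosome 3R from 24650125 to 24653376, plus strand, 2235 bases of exon) helps form the active centre of the complexes. *ash2* had 24.7, 25.9, 24.1 and 23.2 RPKM in *Tet* CD, against 24.0, 24.5, 24.3 and 23.8 RPKM in WT. The WT range lay inside that of *Tet* CD, and the log2 fold change was 0.019 (SE 0.052, 95% interval −0.098 to 0.14, adjusted p = 0.843 from limma, exact permutation p = 0.629). Changes beyond 1.10-fold in either direction were outside its interval. The value was 0.0060 with the length trend removed and −0.012 without the 2 *Tet* CD libraries set apart above.

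*wds* (FBgn0040066, chromosome X from 2585980 to 2588217, plus strand, 1973 bases of exon) encodes the WD-repeat subunit, the fly WDR5, and it also belongs to other chromatin complexes. *wds* had 67.0, 66.9, 65.4 and 66.4 RPKM in *Tet* CD, against 60.8, 60.9, 64.9 and 65.8 RPKM in WT. In *Tet* CD, 3 libraries lay above the WT range and none below it. The means were 66.4 ± 0.717 RPKM in *Tet* CD and 63.1 ± 2.65 RPKM in WT (SD, n = 4 each), a log2 fold change of 0.074 (SE 0.046, 95% interval −0.029 to 0.18, adjusted p = 0.318 from limma, exact permutation p = 0.0571). It stayed between 0.057 and 0.095 when each library was left out in turn, and was 0.058 with the length trend removed and 0.080 in the fit that drops *Tet* CD replicates 2 and 3. *wds* was the only one of the 10 genes with a smaller coefficient of variation in *Tet* CD than in WT (4.20%).

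Lpt and Utx are partners of Trr. *Lpt* (FBgn0263667, chromosome 2R, 4608 bases of exon) encodes a PHD finger protein that corresponds to the amino-terminal part of the mammalian Trr homologues, split off as a separate gene in flies. *Lpt* had 13.9, 11.9, 12.7 and 13.5 RPKM in *Tet* CD, against 13.9, 14.0, 13.6 and 13.4 RPKM in WT. *Tet* CD replicates 2 and 3 were below the WT range and replicates 1 and 4 inside it. The log2 fold change was −0.076 (SE 0.066, 95% interval −0.22 to 0.072, adjusted p = 0.481 from limma, exact permutation p = 0.229). It was −0.018 with the length trend removed and 0.0018 without *Tet* CD replicates 2 and 3.

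*Utx* (FBgn0260749, chromosome 2L from 10272325 to 10278811, minus strand, 4418 bases of exon) encodes the H3K27 demethylase of the Trr complex. *Utx* had 43.4, 39.7, 39.7 and 43.4 RPKM in *Tet* CD, against 45.1, 43.7, 47.3 and 42.3 RPKM in WT. The ranges overlapped, with *Tet* CD replicates 2 and 3 below all WT libraries. The means were 41.6 ± 2.12 RPKM in *Tet* CD and 44.6 ± 2.14 RPKM in WT (SD, n = 4 each), a log2 fold change of −0.10 (SE 0.057, 95% interval −0.23 to 0.028, adjusted p = 0.282 from limma, exact permutation p = 0.114). It was −0.047 with the length trend removed and −0.037 without *Tet* CD replicates 2 and 3.

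*nej* (FBgn0261617), the acetyltransferase of H3K27 and a co-activator of many signalling pathways, had the largest fold change of the 10 genes. It lies on chromosome X from 9665442 to 9687066, minus strand, and has the longest exons of the set, 15932 bases. Insertions of the retrotransposon TART, of 486 and 422 bases, are annotated within it on the same strand and were not analysed here. *nej* had 29.0, 10.6, 14.2 and 25.2 RPKM in *Tet* CD replicates 1 to 4, against 28.3, 30.4, 30.5 and 29.5 RPKM in WT replicates 1 to 4. *Tet* CD replicate 1 was inside the WT range and the other 3 were below it, replicates 2 and 3 far below. The means were 19.7 ± 8.79 RPKM in *Tet* CD and 29.7 ± 0.997 RPKM in WT (SD, n = 4 each), a log2 fold change of −0.69 (SE 0.27, 95% interval −1.30 to −0.075). It did not pass the test (unadjusted p = 0.0316, adjusted p = 0.137 from limma, exact permutation p = 0.0571, where the smallest p possible is 0.0286). Its coefficient of variation was 44.5% in *Tet* CD and 3.36% in WT.

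In replicates 2 and 3 the log2 ratio of *nej* to its WT mean was −1.45 and −1.04, against medians of −0.64 and −0.31 over the genes with 10000 bases of exon or more. *trx*, the other member of that length class, was at −0.46 and 0.028. With the length trend removed, the log2 fold change of *nej* was −0.43 (SE 0.14, adjusted p = 0.0628 from limma), and without *Tet* CD replicates 2 and 3 it was −0.13 (SE 0.070, adjusted p = 0.315 from limma). The value was −0.43 when *Tet* CD replicate 2 was omitted and −0.91 when replicate 1 was, so the size of the difference depended on single libraries. In the fit with array weights, which let limma weigh each library, *nej* was called at −0.99 (adjusted p = 0.000633 from limma) and *Set1* at −0.37 (adjusted p = 0.00422 from limma), 2 of the 10 genes, where 19.8% of all tested genes were called. That fit put a weight of 6.32 on *Tet* CD replicate 3, against 0.318 to 0.399 on the other 3 *Tet* CD libraries.

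**Figure D2:**
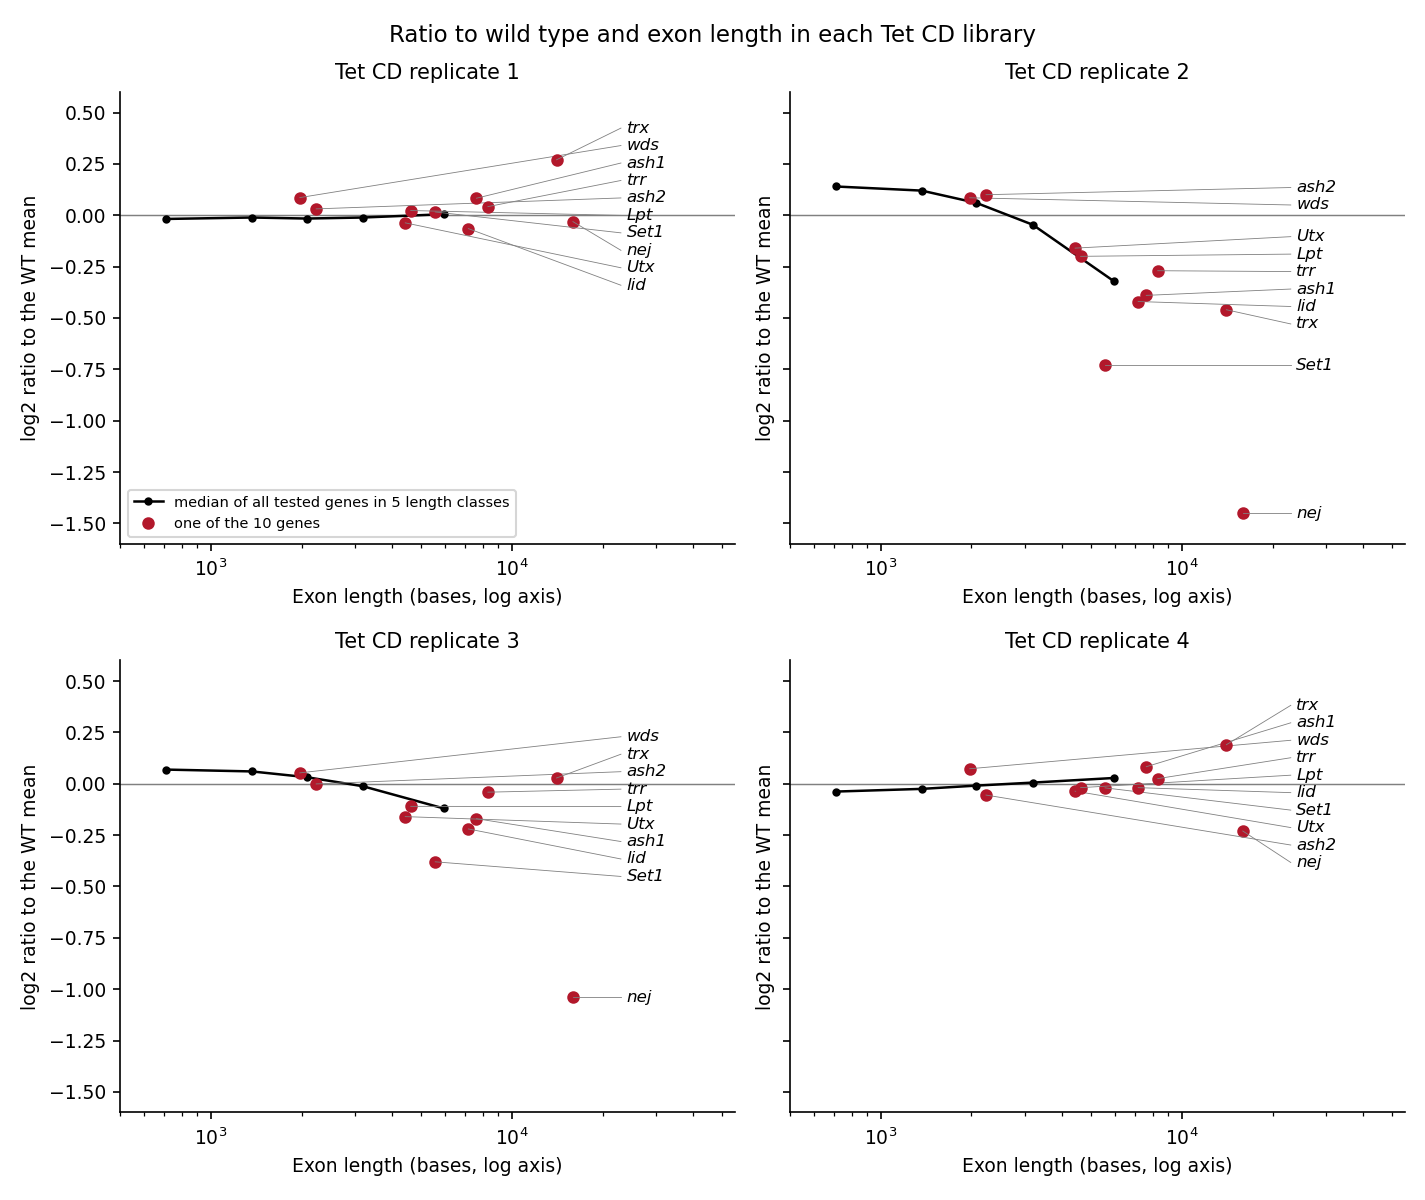
Log2 ratio of the level in each *Tet* CD library to the WT mean (vertical axis) against exon length in bases (log axis), 1 panel per library; red points are the 10 genes and the black line joins the medians of 5 length classes of all tested genes. In replicates 2 and 3 the line falls to −0.32 and −0.12 in the longest class, and *nej* lies at −1.45 and −1.04, whereas in replicates 1 and 4 *nej* lies at −0.031 and −0.23.

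The demethylase gene *lid* (FBgn0031759, named *Kdm5* in the current annotation) lies on chromosome 2L from 5989400 to 5999501, minus strand, with 7158 bases of exon. *lid* had 74.8, 58.5, 67.3 and 77.3 RPKM in *Tet* CD, against 72.5, 77.5, 83.9 and 79.8 RPKM in WT. *Tet* CD replicates 2 and 3 were below the WT range and replicates 1 and 4 inside it. The means were 69.5 ± 8.47 RPKM in *Tet* CD and 78.4 ± 4.72 RPKM in WT (SD, n = 4 each), a log2 fold change of −0.18 (SE 0.089, 95% interval −0.38 to 0.019, adjusted p = 0.218 from limma, exact permutation p = 0.114). It was −0.043 with the length trend removed and −0.042 without *Tet* CD replicates 2 and 3.

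**Figure D3:**
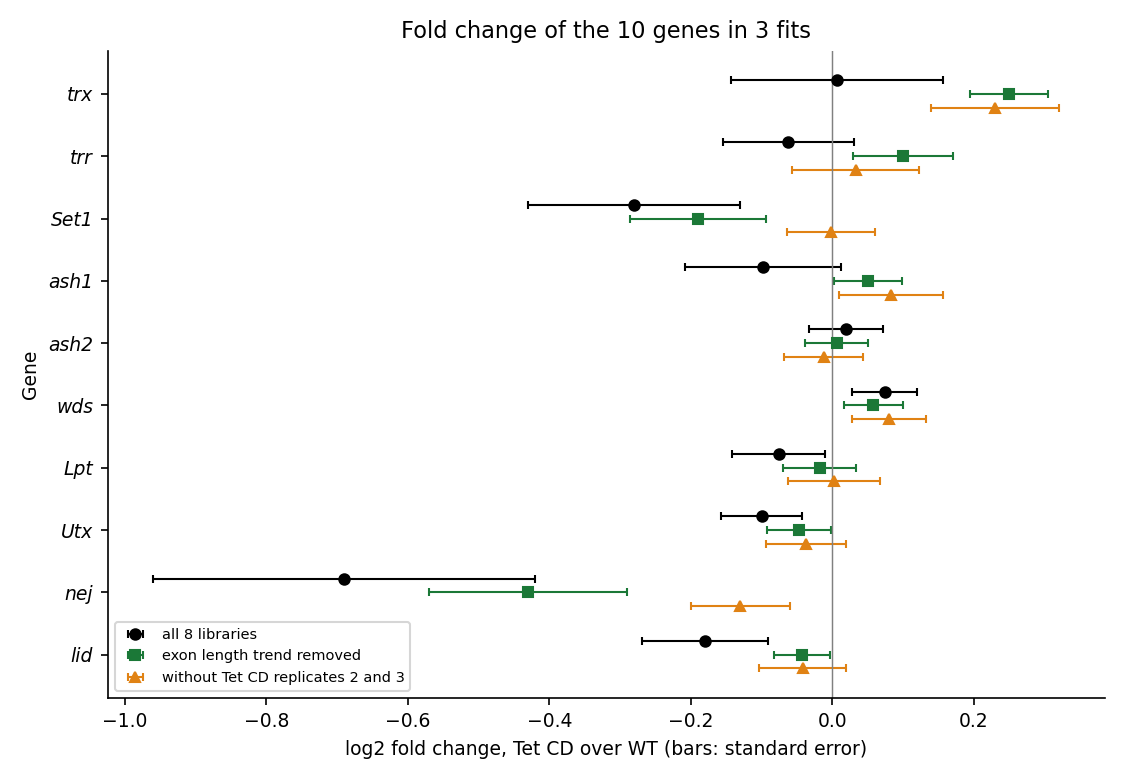
Log2 fold change of each of the 10 genes, *Tet* CD over WT (horizontal axis, bars are the SE from limma), over all 8 libraries (black circles), with the exon length trend removed (green squares) and without *Tet* CD replicates 2 and 3 (orange triangles). *nej* is at −0.69, −0.43 and −0.13 in the 3 fits and *trx* at 0.0063, 0.25 and 0.23.

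The number of the 10 genes below their WT mean was 3, 8, 8 and 6 for *Tet* CD replicates 1 to 4. Those above it were *ash2* (0.10 on the log2 scale) and *wds* (0.085) in replicate 2, and *trx* (0.028) and *wds* (0.053) in replicate 3. Their median log2 ratio took the values 0.027, −0.33, −0.14 and −0.019 over the *Tet* CD libraries and −0.059, 0.021, 0.056 and −0.013 over the WT libraries. Over all tested genes the median lay between −0.0087 and 0.012 in every library. The coefficient of variation was larger in *Tet* CD than in WT for 9 of the 10 genes, *wds* being the exception. After *nej*, it was highest for *Set1* (23.2% in *Tet* CD, 5.13% in WT) and *trx* (21.1% in *Tet* CD, 9.39% in WT).

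Levels per length can be set side by side between genes, with a limit in *Tet* CD. Long transcripts were low in *Tet* CD replicates 2 and 3, which enter its means. In *Tet* CD the mean level ran from *lid* (69.5 RPKM) and *wds* (66.4) over *Utx* (41.6), *Set1* (29.3), *ash2* (24.5), *trx* (23.4), *nej* (19.7), *ash1* (15.7) and *trr* (14.5) to *Lpt* (13.0 RPKM). Neighbours in this order overlapped between libraries except *wds* with *Utx* and *Utx* with *Set1*. In WT the order was *lid* (78.4 RPKM), *wds* (63.1), *Utx* (44.6), *Set1* (34.9), *nej* (29.7), *ash2* (24.1), *trx* (22.9), *ash1* (16.7), *trr* (15.2) and *Lpt* (13.7 RPKM). There, overlap was limited to *ash2* with *trx*, *ash1* with *trr* and *trr* with *Lpt*. The only change of order was *nej*, the gene with the longest exons of the set. It was at the 56.6th percentile of tested genes in *Tet* CD and the 69.1st in WT. The part of exon length in this change was not tested. Thus the H3K4 demethylase *lid* had the highest mean transcript level of the set in both genotypes, and the means of the 3 catalytic subunits lay below it. In *Tet* CD replicate 2, *wds* was above *lid* (66.9 against 58.5 RPKM).

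Ratios within a library do not depend on how the library was scaled. An effect of exon length does not cancel in them where the genes differ in length. The log2 ratio of *trx* to *lid*, writer over eraser, was −1.83 to −1.44 in *Tet* CD and −1.86 to −1.74 in WT. For *trr* over *lid* it was −2.33 to −2.20 in *Tet* CD and −2.42 to −2.32 in WT. For *Set1* over *lid* it was −1.49 to −1.09 in *Tet* CD and −1.30 to −1.03 in WT. All of these overlapped between the genotypes. The ratio of *nej* to *Utx* sets the acetyltransferase over the demethylase of the same residue. It took the values −0.58, −1.91, −1.49 and −0.78 over the *Tet* CD libraries and −0.67 to −0.52 in WT. Only *Tet* CD replicate 1 was inside the WT range. *nej* has 15932 bases of exon and *Utx* 4418, and long transcripts were low in *Tet* CD replicates 2 and 3. The part of exon length in this ratio was not tested. *Lpt* over *trr*, partners in 1 complex, ranged from −0.21 to −0.064 in *Tet* CD and from −0.27 to 0.034 in WT, and *wds* over *ash2* from 1.37 to 1.52 in *Tet* CD and from 1.31 to 1.47 in WT.

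For each of the 10 genes the tested gene with the most similar profile was sought, by the root mean square difference of log2(RPKM + 0.5), centred on its mean over the 8 libraries. For *nej* this gene was *Tet* itself, with a difference of 0.0463 where the spread of *nej* was 0.536. *Tet* had 81.0, 28.3, 39.2 and 72.4 RPKM in *Tet* CD replicates 1 to 4, against 76.4, 81.8, 88.8 and 83.4 RPKM in WT, and like *nej* it is long, with 13823 bases of exon. As for *nej*, replicates 2 and 3 were low and the difference of *Tet* did not pass the test (log2 fold change −0.70, adjusted p = 0.153 from limma). It was −0.46 with the length trend removed and −0.11 without those libraries. With the length trend removed, *Tet* had rank 3 in nearness to *nej* among 9151 genes, and the nearest was *CG11486* (difference 0.0549, spread of *nej* 0.294). For *trx* the nearest was *kug*, a gene of 14507 exon bases that encodes an atypical cadherin (0.0362), and for *trr* it was *LRP1*, which encodes a lipoprotein receptor-like protein (0.0329). For *Set1* it was *Socs16D* (0.0319), for *ash1* the receptor phosphatase gene *Ptp10D* (0.0319), and for *lid* the ubiquitin ligase gene *Ubr3* (0.0223). *ash2* was nearest to *Miga* (0.0217), *wds* to *CG5787* (0.0229), *Lpt* to *Ankle2* (0.0225) and *Utx* to *CG33144* (0.0333). For 9 of the 10 genes, *nej* among them, the nearest gene was another one after the length trend was taken out, and for *Lpt* it stayed *Ankle2*. These profiles share the 8 libraries and their spread, so likeness is a description only.

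**Figure D4:**
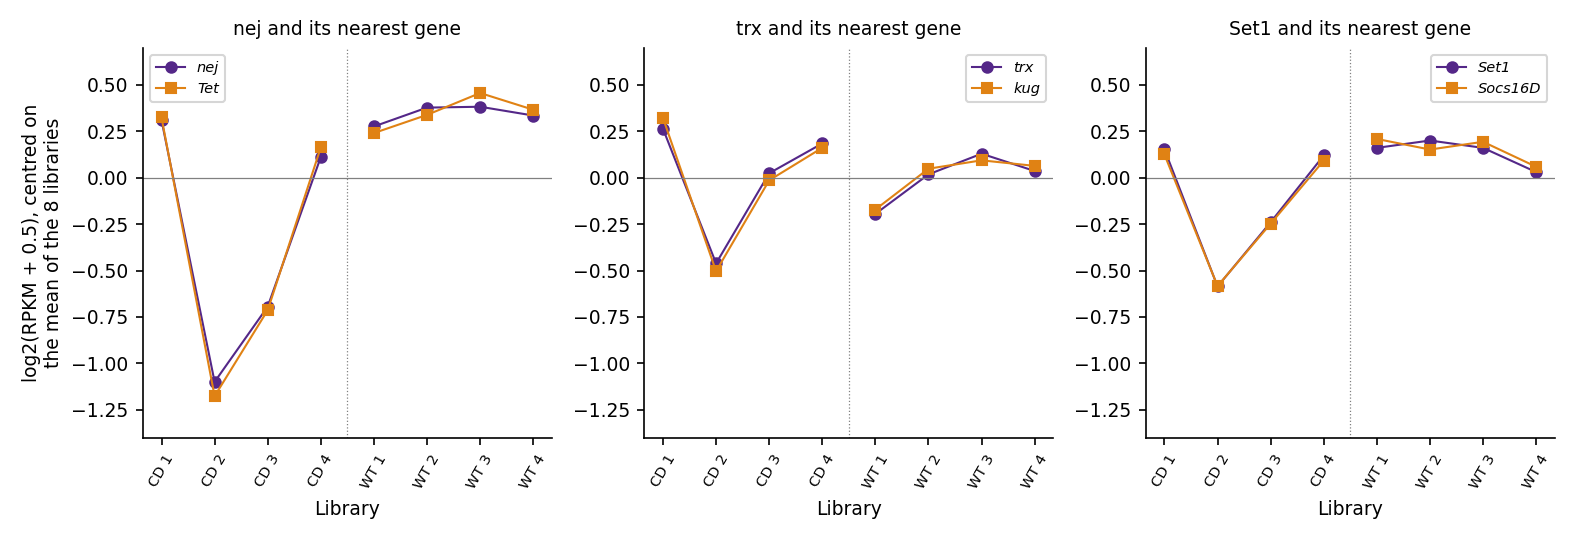
Profiles of *nej*, *trx* and *Set1* with the gene nearest to each, as log2(RPKM + 0.5) centred on the mean of the 8 libraries (vertical axis), for *Tet* CD replicates 1 to 4 (left) and WT replicates 1 to 4 (right). *nej* and *Tet* lie within a root mean square difference of 0.0463, and both are lowest in *Tet* CD replicate 2, at 10.6 and 28.3 RPKM.

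The wider machinery was counted in fixed lists, beside 2.51% of all tested genes called and 28.3% at unadjusted p below 0.05. Of 10 other COMPASS subunits 9 were tested and none was called, with 4 above and 5 below 0 and a median log2 fold change of −0.013. Here 1 passed at unadjusted p below 0.05, *Pa1*, a subunit of the Trr complex, which had 50.5, 46.0, 45.1 and 43.1 RPKM in *Tet* CD, against 41.6, 38.3, 36.7 and 35.2 RPKM in WT. Its libraries did not overlap, and its log2 fold change of 0.28 (SE 0.069, adjusted p = 0.0362 from limma) missed the threshold for calls. It was 0.30 without *Tet* CD replicates 2 and 3 (adjusted p = 0.0990 from limma), and no exon length was matched to it for the other fit. *Ncoa6*, a co-activator in the same complex with 10041 bases of exon, had 18.3, 7.92, 11.4 and 16.7 RPKM in *Tet* CD, against 16.4, 17.2, 17.9 and 17.0 RPKM in WT, and again *Tet* CD replicates 2 and 3 were the low ones (log2 fold change −0.39, adjusted p = 0.274 from limma). The value of *Ncoa6* was −0.20 with the length trend removed and 0.030 without those libraries.

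Among 10 other lysine demethylases and partners, none was called and 4 lay above and 6 below 0 (median −0.013). *JMJD5*, a gene of the JmjC family, had 12.4, 13.7, 12.7 and 12.9 RPKM in *Tet* CD, against 16.6, 16.2, 15.7 and 15.7 RPKM in WT, with no overlap (log2 fold change −0.30, SE 0.058, adjusted p = 0.0153 from limma). It missed the threshold, and its exons are short, 1330 bases. With the length trend removed *JMJD5* was called, at −0.33 (adjusted p = 0.00398 from limma), the only one of these 10, where 3.98% of all tested genes were. Without *Tet* CD replicates 2 and 3 it was also at −0.33, and did not pass (adjusted p = 0.0322 from limma). The other gene at unadjusted p below 0.05 was *CoRest*, the partner of the demethylase Su(var)3-3 (−0.13, adjusted p = 0.171 from limma). None of the 10 tested of 11 other lysine methyltransferases was called (median −0.053), and 3 of the 10 were at unadjusted p below 0.05, named after their values were seen: *Set8* (0.19), *E(z)* (0.13) and *Smyd3*. Their largest differences were those of the H3K79 methyltransferase gene *gpp* (−0.29, adjusted p = 0.330 from limma) and *Smyd3* (−0.21, adjusted p = 0.134 from limma). *gpp* has 11749 bases of exon and *Smyd3* 1762. With the length trend removed *gpp* was at −0.076 and *Smyd3* at −0.23. Without *Tet* CD replicates 2 and 3 they were at 0.040 and −0.11.

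Of 9 other acetyltransferases and partners none was called, 3 lay above and 6 below 0 (median −0.065), and the largest differences were those of *chm* (−0.23, adjusted p = 0.0882 from limma) and *enok* (0.17, adjusted p = 0.272 from limma), both of the MYST family. Of these 9, *chm* alone was at unadjusted p below 0.05. Of 11 histone deacetylases and partners 9 were tested and none was called (median −0.046). *HDAC11* was at −0.44 (adjusted p = 0.104 from limma) and *HDAC4* at −0.26 (adjusted p = 0.394 from limma). With the length trend removed they were at −0.46 and −0.12, and without *Tet* CD replicates 2 and 3 at −0.53 and 0.077. At unadjusted p below 0.05 were 3 of the 9, *HDAC11* and, named after their values were seen, *Sirt2* (−0.17) and *Sirt6* (0.16).

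None of the 23 trithorax group remodellers and co-factors was called, with 8 above and 15 below 0 (median −0.035), and 5 at unadjusted p below 0.05. *tna*, which encodes a SUMO ligase-like co-factor of Brahma complexes, had 60.8, 26.8, 32.7 and 55.9 RPKM in *Tet* CD, against 68.1, 67.1, 70.3 and 67.7 RPKM in WT. All *Tet* CD libraries lay below all WT libraries, and the log2 fold change of −0.71 did not pass the test (SE 0.23, adjusted p = 0.0855 from limma). The Mediator gene *skd*, with 12307 bases of exon, had 30.4, 12.2, 17.7 and 27.8 RPKM in *Tet* CD, against 26.4, 29.5, 31.5 and 28.1 RPKM in WT (log2 fold change −0.47, adjusted p = 0.247 from limma). In both genes *Tet* CD replicates 2 and 3 were the lowest libraries, as in *nej*. Taking out the length trend gave −0.58 for *tna* and −0.25 for *skd*, and without those libraries *tna* was at −0.23 and *skd* at 0.014. The other 4 at unadjusted p below 0.05, named after their values were seen, were *fs(1)h* (−0.39), *lolal* (−0.19), *Bap111* (−0.16) and *polybromo* (0.20). With the length trend removed they were at −0.14, −0.20, −0.15 and 0.28. Without *Tet* CD replicates 2 and 3 they were at −0.052, −0.10, −0.18 and 0.19. *fs(1)h* has 15685 bases of exon.

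The homeotic genes, the classical targets of *trx* and *ash1*, were without a call among 8 tested, and 3 were at unadjusted p below 0.05. Of these, 2 lay above and 6 below 0, with a median log2 fold change of −0.18. *Antp* had 8.47, 4.73, 5.40 and 7.64 RPKM in *Tet* CD, against 9.24, 9.29, 8.89 and 9.05 RPKM in WT, with no overlap (log2 fold change −0.48, SE 0.16, adjusted p = 0.0905 from limma). *Ubx* had 8.23, 5.40, 7.10 and 8.65 RPKM in *Tet* CD, against 10.6, 10.2, 9.999 and 8.50 RPKM in WT, where only WT replicate 4 was within the *Tet* CD range (−0.41, adjusted p = 0.0937 from limma). *Abd-B*, named after its values were seen as the remaining gene at unadjusted p below 0.05, was at −0.32 (adjusted p = 0.0940 from limma). Taking out the length trend gave −0.33 for *Antp*, −0.36 for *Ubx* and −0.11 for *Abd-B*, and in the fit that drops *Tet* CD replicates 2 and 3 they were at −0.17, −0.20 and −0.27. The median of the list was −0.086 with the length trend removed and −0.32 over its members with a mean of at least 2 RPKM, and omitting *Tet* CD replicate 2 or replicate 4 gave −0.064 or −0.34. In the 18 core Polycomb genes none was called and the median was −0.084, with 4 at unadjusted p below 0.05, *Psc*, *pho* and, named after their values were seen, *E(z)* (0.13) and *calypso* (−0.17). Omitting *Tet* CD replicate 2 gave −0.030 for it, and omitting replicate 3 as well gave 0.0063. The genes with the largest differences were *Psc* (−0.25, adjusted p = 0.150 from limma), a subunit of PRC1, and *pho* (0.20, adjusted p = 0.0503 from limma), which encodes a DNA-binding Polycomb protein. With the length trend removed *Psc* was at −0.13 and *pho* at 0.19. Without *Tet* CD replicates 2 and 3 they were at −0.095 and 0.23.

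The lists had calls in the fit with array weights, in which 19.8% of all tested genes were called. Of the 9 tested COMPASS subunits 1 was called there (*Ncoa6*), of the 10 demethylases 1 (*JMJD5*), and of the 10 methyltransferases 2 (*gpp* and *Smyd3*). Of the 9 acetyltransferases 1 was called (*chm*), of the 9 deacetylases 1 (*HDAC11*), and of the 23 remodellers 4 (*osa*, *skd*, *fs(1)h* and *tna*). Of the 8 homeotic genes 3 were called (*Antp*, *Ubx* and *Abd-B*) and of the 18 Polycomb genes none. All of these calls were lower in *Tet* CD. Of all tested genes, 1024 were called lower and 826 higher in that fit. As given above, it put a weight of 6.32 on *Tet* CD replicate 3, in which long transcripts were low. The other *Tet* CD libraries had weights of 0.318 to 0.399. The part of exon length in these calls was not tested.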

How the data were processed

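RNA was extracted with TRIzol from pooled larval CNS, and libraries were made with the Illumina TruSeq RNA kit. Per the methods, the authors used Cutadapt for trimming, HISAT2 for alignment to dm6, HTSeq-Count for gene counts and Cufflinks for the deposited RPKM. Whether counting used strand is not given in the sources used here, so reads of overlapping genes on opposite strands cannot be told apart.

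The 8 columns that match a *Tet* CD or WT label were used, and 4 columns of per-sample values that match no label were not. The study tested counts with DESeq2, and those counts were not used here. At the same thresholds the study reported more changed genes in *Tet* CD than were called here. Log2(RPKM + 0.5) was compared with limma 3.58.1 (R 4.3.3, eBayes with trend), over the 9357 genes whose mean reached 0.5 RPKM, with the study's thresholds (adjusted p below 0.01, fold change above 1.2). On this scale fold changes of low genes are understated. A two-sided exact permutation test used the 70 arrangements of 4 against 4 libraries. Library sizes came from low values: 97.6 to 98.1% of the values under 0.3 RPKM were whole reads within 0.01. Reads counted after PCR are not independent molecules. Exon lengths and gene positions are those of a later Ensembl annotation of dm6 than the authors used, which covers 98.4% of the genes. The length trend was removed with a lowess of span 0.3. The fit was tested on simulated data. Other steps used pandas 2.3.3, numpy 2.4.6, matplotlib 3.10.9 and scipy 1.17.1 under Python 3.11.15.

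The genes named are the 10 genes, *Tet*, from each list the called genes and the 2 largest differences, and the nearest profile of each of the 10. The genes and lists were chosen with earlier results of these data known. Of 144 listed genes outside the 10, 143 were found. The sums of markers for other tissues, in *Tet* CD and in WT, were 1.04 to 42.4 and 0.649 to 17.9 RPKM for fat body, 2.26 to 11.4 and 1.67 to 7.71 for salivary gland, 10.3 to 15.8 and 7.59 to 12.7 for muscle, 13.3 to 20.4 and 11.4 to 17.9 for hemocytes, 24.8 to 42.8 and 14.5 to 25.7 for eye disc, and 138 to 245 and 92.9 to 264 for ring gland. Their part in the results was not tested.

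The alternatives were a pseudocount of 0.1 or 1, scaling by median of ratios, no filter or one at 2 RPKM, the replicate block, array weights, an adjusted p below 0.05, the length trend, each library left out, and *Tet* CD replicates 2 and 3 left out together. Distances between profiles with the length trend removed were added after seeing the data. *Tet* CD replicates 2 and 3 were picked for their values in these data. The fit without both is therefore no independent check of genes that were low in them. The sequence of 1 promoter is not reported here.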

Additional observations from a re-analysis of the deposited data

How the results depend on the processing

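The number of the 10 genes called by limma was 0 in every fit except that with array weights, where it was 2. The number of all tested genes called, 235, was 111 with the replicate block, 1850 with array weights, 792 at an adjusted p below 0.05, 365 with the length trend removed, 130 without *Tet* CD replicates 2 and 3, and 122 to 406 when each library was left out. Leaving out each library gave −0.080 to 0.16 for *trx*, with −0.00081, −0.055 and −0.057 when *Tet* CD replicate 3 or 4 or WT replicate 1 was omitted. It gave −0.11 to 0.0085 for *trr*, which was at 0.10 with the length trend removed and 0.033 without *Tet* CD replicates 2 and 3. For *ash1* the log2 fold change was 0.050 and 0.083 under the last pair of settings, and for *Lpt* 0.0018 without *Tet* CD replicates 2 and 3. For *ash2* it was −0.00070 with array weights, −0.012 without *Tet* CD replicates 2 and 3, and −0.0083 to 0.044 when each library was left out. The cause was not tested. *wds*, *Utx*, *nej* and *lid* kept their direction in every fit, and *Set1* was at −0.0020 without *Tet* CD replicates 2 and 3, where *nej* was at −0.13. Leaving out each library gave −0.91 to −0.43 for *nej*, −0.37 to −0.13 for *Set1*, −0.23 to −0.10 for *lid* and −0.12 to −0.071 for *Utx*.

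Same-numbered libraries correlated at 0.236, −0.186, 0.0398 and −0.105 in their deviations from the group means. Not every library correlated best with its own number, so these values do not show a pairing by replicate number. They cannot show that there was none, since the deviations within each group add up to 0. With the replicate block 0 of the 10 genes were called and 111 of all tested genes. Over all 8 libraries the 95% interval of *nej* spans fold changes from 0.41 to 0.95, and that of *trx* from 0.80 to 1.27. The interval of *trx* runs from 1.09 to 1.29 with the length trend removed and from 1.01 to 1.36 without *Tet* CD replicates 2 and 3.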
